A study of Mus musculus with 6 samples.

Results

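The genes described here encode proteins that bind nuclear RNA and splice it: the heterogeneous nuclear ribonucleoproteins (hnRNPs), the serine/arginine-rich SR proteins, the SF3a and SF3b subunits and the Snrp proteins of the small nuclear ribonucleoproteins, with the Y-box protein gene Ybx1. They were taken by name (symbols starting with Hnrnp, Srsf and a digit, Sf3a or Sf3b, or Snrp, plus Ybx1) from a table of transcripts in exosome RNA. The names gave 51 genes of the 12384 in the table, and 170 transcripts of 27544: 20 hnRNP genes with 101 transcripts, 10 SR protein genes with 29, 9 SF3 genes with 12, 11 Snrp genes with 21, and Ybx1 with 7. A gene's level is the sum of FPKM (fragments scaled by transcript length and by the library's mapped total) over its transcripts, a unit per length that allows genes to be compared. All 51 genes reached 0.5 FPKM in at least 3 of the 6 libraries and were tested.

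Exosomes, small vesicles that cells release, were collected from cultures of C57BL/6 mouse bone marrow-derived dendritic cells. Marrow cells of both groups were grown to day 7 with GM-CSF at 20 ng/ml and IL-4 at 10 ng/ml in medium depleted of vesicles. Mature exosomes (3 libraries, replicates 1 to 3) came from cells given lipopolysaccharide, a bacterial activator of dendritic cells, at 5 µg/ml for 24 h, and immature exosomes (3 libraries, replicates 1 to 3) from cells given PBS for the same time. The agents were washed out, and the vesicles were pelleted by differential ultracentrifugation from medium collected 48 h later. The labels give neither the age of the mice nor whether replicates are separate cultures. A p-value here therefore rests on the spread between these libraries, which may be technical. The test also draws each gene's spread toward that of other genes, so p does not measure the gene's own spread alone. With bulk RNA, fewer vesicles of one kind and less RNA per vesicle cannot be told apart.

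In the nucleus, hnRNPs coat new transcripts and often keep splice sites out of use, whereas SR proteins bind exon sequences and recruit the splicing machinery. The Sm ring proteins, many of them named Snrp, form the core of the spliceosomal particles, and SF3a and SF3b are the parts of the U2 particle that hold the branch site of an intron. SR protein and hnRNP genes limit their own output by making transcripts that are retained in the nucleus or destroyed by nonsense-mediated decay. The proteins YBX1 and HNRNPA2B1 have, in human cells, been linked to the sorting of small RNAs into exosomes; the values below concern their mRNAs, not the proteins.

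The promoters of 5 genes on which the later results turn are shown, among them Ybx1 and Hnrnpa2b1 for that link. Srsf2 and Srsf11 were the only members at an unadjusted p under 0.05 in the main fit, which had no scaling between libraries. Srsf10 was the only member below all immature libraries in every mature one. Each promoter runs 5′ to 3′ on the gene's strand from 250 bases before to 50 bases after the transcription start (RefSeq, GRCm38.p6). Capitals mark the CCAAT box (CCAAT or ATTGG) and the ETS core (CCGGAAG or CTTCCGG). The inverted form of the CCAAT box is the Y-box after which YBX1 was named.
Ybx1: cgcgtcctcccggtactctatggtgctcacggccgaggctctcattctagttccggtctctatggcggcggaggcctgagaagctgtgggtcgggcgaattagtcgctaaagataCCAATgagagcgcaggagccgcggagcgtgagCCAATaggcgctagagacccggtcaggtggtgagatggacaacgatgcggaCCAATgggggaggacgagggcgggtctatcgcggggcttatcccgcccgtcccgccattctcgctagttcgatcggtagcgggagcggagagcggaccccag
Hnrnpa2b1: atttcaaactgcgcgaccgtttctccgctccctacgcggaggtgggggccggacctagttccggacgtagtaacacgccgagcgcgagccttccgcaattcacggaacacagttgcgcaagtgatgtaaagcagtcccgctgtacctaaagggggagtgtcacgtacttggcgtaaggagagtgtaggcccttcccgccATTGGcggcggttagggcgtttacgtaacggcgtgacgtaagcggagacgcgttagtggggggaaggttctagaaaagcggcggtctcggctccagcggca
Srsf2: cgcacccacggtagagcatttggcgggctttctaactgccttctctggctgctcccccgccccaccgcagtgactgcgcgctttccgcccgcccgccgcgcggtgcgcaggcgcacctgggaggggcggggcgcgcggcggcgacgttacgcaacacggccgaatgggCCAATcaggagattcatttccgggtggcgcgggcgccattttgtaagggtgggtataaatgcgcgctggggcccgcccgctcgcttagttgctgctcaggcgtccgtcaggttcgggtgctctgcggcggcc
Srsf11: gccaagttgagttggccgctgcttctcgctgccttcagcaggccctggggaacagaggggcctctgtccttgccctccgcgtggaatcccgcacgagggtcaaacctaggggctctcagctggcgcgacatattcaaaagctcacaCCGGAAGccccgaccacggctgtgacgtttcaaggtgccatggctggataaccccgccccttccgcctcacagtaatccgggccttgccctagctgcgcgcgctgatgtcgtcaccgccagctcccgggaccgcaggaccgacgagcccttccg
Srsf10: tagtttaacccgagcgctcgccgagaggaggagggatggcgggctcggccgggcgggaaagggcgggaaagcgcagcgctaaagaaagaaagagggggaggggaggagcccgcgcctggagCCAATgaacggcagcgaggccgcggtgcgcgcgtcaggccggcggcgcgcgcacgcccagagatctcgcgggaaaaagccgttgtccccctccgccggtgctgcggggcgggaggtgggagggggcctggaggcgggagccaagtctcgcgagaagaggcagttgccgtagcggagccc
The windows lie at chr4:119294464-119294763 (minus strand) for Ybx1, chr6:51469845-51470144 (minus) for Hnrnpa2b1, chr11:116853045-116853344 (minus) for Srsf2, chr3:158036557-158036856 (minus) for Srsf11 and chr4:135855821-135856120 (plus) for Srsf10. Hnrnpa2b1 and Srsf11 have 2 listed starts each, and the first is shown. Ybx1 holds 3 CCAAT boxes, Hnrnpa2b1, Srsf2 and Srsf10 hold 1 each, and Srsf11 holds 1 ETS core and no CCAAT box. These matches describe letters in a window and are not binding sites shown to be used.

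Of the 51 genes, 45 were matched to a RefSeq promoter by symbol. On either strand, the ETS core CCGGAAG stood in 16 of them (35.6%), compared with 20.4% of the 7908 tested genes with a promoter and 9.12% of all 27025 promoters. The CCAAT box was found in 22 (48.9%, against 38.9% and 37.9%), and the GC box GGGCGG in 32 (71.1%, against 66.1% and 35.9%). TATAAA was found in 6 (13.3%, against 6.75% and 14.2%). The interferon-stimulated element was in none of the 45, against 3.35% of tested genes, and the NF-kB consensus was in none, against 0.202%.

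The libraries differed in more than their group. Summed FPKM was 130401 to 281368 in mature and 135814 to 213737 in immature libraries, and the deposited values give no read totals. Mitochondrial transcripts made up 0.104% to 0.940% in mature and 0.0696% to 2.55% in immature libraries, and ribosomal protein transcripts 11.9% to 19.6% and 12.6% to 33.8%. The median log2 fold change of all 10277 genes tested was 0.38, mature over immature, so a gene that followed the rest of the table had a value near 0.38. Dendritic cell markers were present (8 of 10 reached the filter; Flt3 stayed under 1 FPKM, and Cd209a was listed at 0 in all but mature 2 and immature 3), at a summed 2360 to 4000 FPKM in mature and 1650 to 1849 FPKM in immature libraries. Most of this sum came from Ccl17, Cd74 and H2-Ab1, at means of 1190, 697 and 422 FPKM over all libraries. Of the 8 tested, 6 had a fold change above the median of all genes and 2 (Itgax and Mgl2) below it. Mgl2 averaged 48.5 FPKM in mature and 79.4 FPKM in immature libraries. The 6 maturation markers (Ccr7, Cd40, Cd80, Cd86, Ccl22, Il12b) summed to 342 to 488 FPKM in mature and 39.2 to 141 FPKM in immature libraries.

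Ybx1, which packages mRNA in the cytoplasm, was the most abundant member and ranked 118th among all genes of the table. Its level was 169, 380 and 304 FPKM in mature libraries 1 to 3, against 232, 235 and 238 FPKM in immature libraries 1 to 3. The immature libraries were almost alike and lay inside the spread of the mature ones, with mature 1 below all of them and mature 2 and 3 above. Means were 284 ± 107 FPKM in mature and 235 ± 2.85 FPKM in immature libraries (SD, n = 3 each), and the log2 fold change was 0.20 (SE 0.57, limma adjusted p = 0.944). Ybx1 lies at chr4:119277981-119294604 (GRCm38), and its transcript Ybx1-201, singled out after its values were seen, held 88.8%, 92.5% and 89.6% of the gene's FPKM in mature libraries, against 79.0%, 92.4% and 92.6% in immature libraries.

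**Figure D1:**
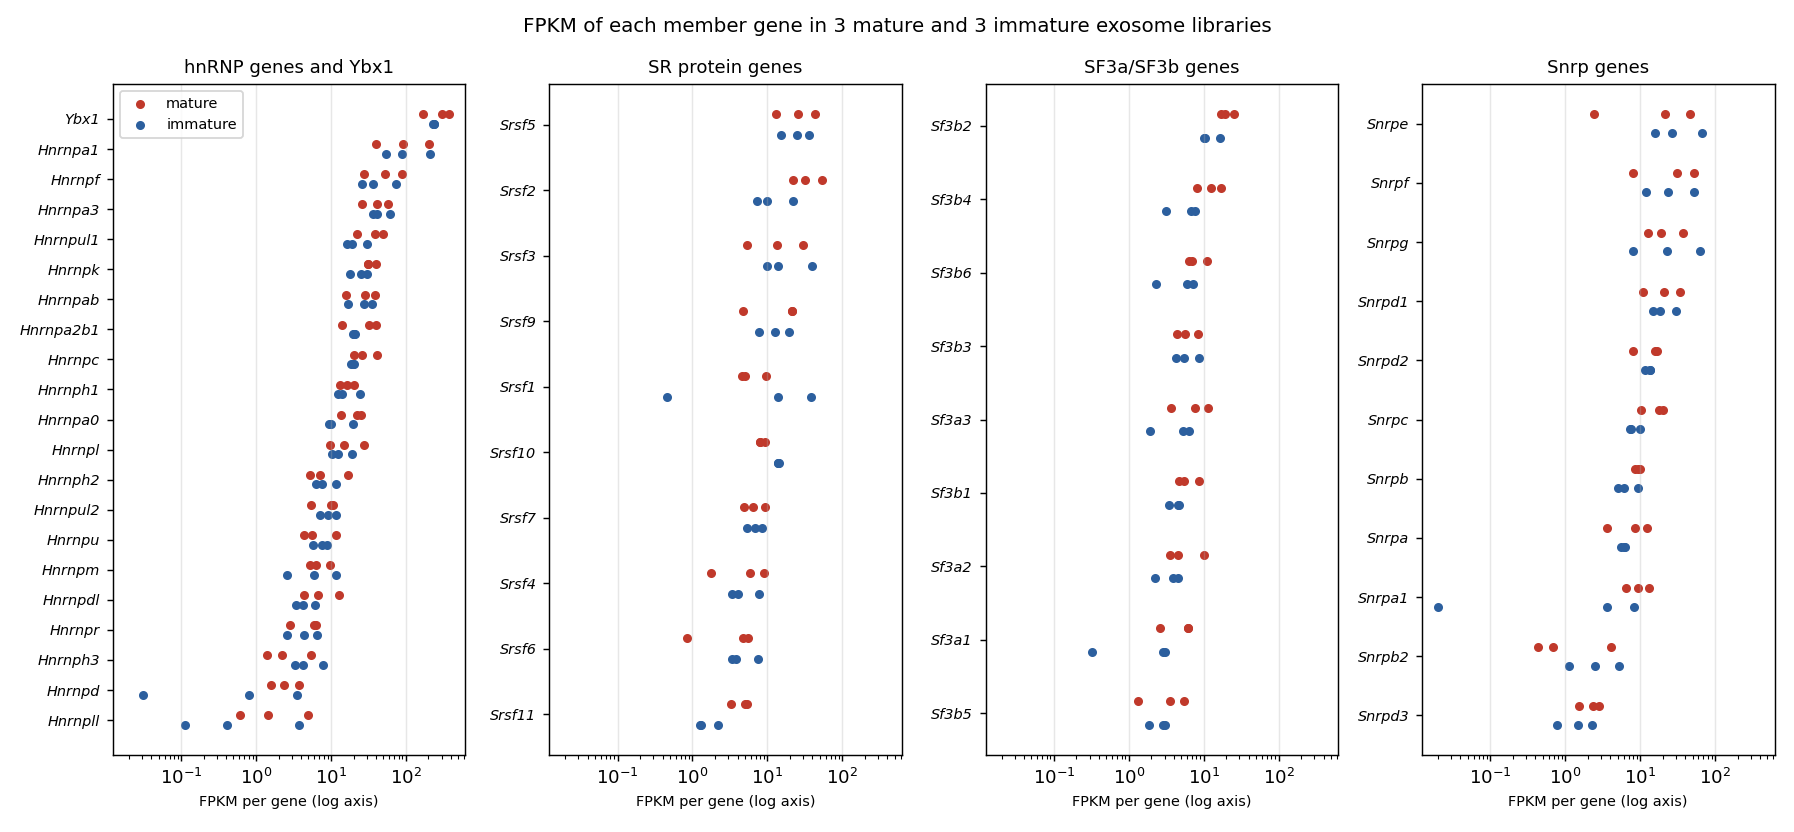
FPKM of each of the 51 genes (log axis) in the 3 mature (red) and 3 immature (blue) libraries, by family and ordered by mean level. Each point is 1 library, and the single listed 0 (Snrpa1, immature 2) is drawn at 0.02 FPKM. Ybx1 stands highest at 169 to 380 FPKM in mature and 232 to 238 FPKM in immature libraries, and for most genes the colours overlap.

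No member passed the test between mature and immature exosomes (limma on log2(FPKM + 1), Benjamini-Hochberg adjustment over all 10277 genes, threshold 0.05): 0 of 51, beside 0.185% of all genes tested that passed as higher and 0% as lower. The smallest adjusted p among the members was 0.437. At an unadjusted p under 0.05, 2 members were higher (Srsf2 and Srsf11) and 0 lower, beside 9.52% of all genes higher and 0.224% lower. In 7 members (13.7%) every mature library was above every immature one, a share below that of all genes (16.7%), and in 1 member (1.96%, against 0.642%) every mature library was below. The 7 were Hnrnpk, Hnrnpc, Srsf2, Srsf11, Sf3b2, Sf3b4 and Snrpc, and the 1 was Srsf10. Those of them outside the naming rule (Hnrnpk and Hnrnpc) were singled out after their values were seen. These counts are of FPKM without scaling, and summed FPKM ran from 130401 in mature 1 to 281368 in mature 2. As a percent of the library's total, the groups overlapped in Hnrnpk, Hnrnpc, Srsf2, Srsf11, Sf3b2 and Sf3b4. By that measure Srsf10 stayed apart, and Snrpc did so by a very small margin.

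The members' log2 fold changes ranged between -1.04 (Snrpe) and 1.56 (Snrpa1), with 36 positive and 15 negative. Of all 10277 genes tested, 7853 were positive and 2424 negative. The members' median was 0.21 against 0.38 for all genes, a difference of -0.17, and 32 of 51 (62.7%) lay below the median of all genes. Scaling between libraries decided the sign: the members' median was -0.25 after median-of-ratios scaling, -0.28 after upper-quartile scaling and -0.26 after quantile normalization, while that of all genes was 0.02, 0.00 and -0.02. The split at an unadjusted p under 0.05 was then 0 higher and 2 lower (Srsf10 and Snrpe) after median-of-ratios scaling, and 0 higher and 1 lower (Srsf10) after the other two. Of all genes, 4.67% were higher and 2.31% lower after median-of-ratios scaling, 4.45% and 2.49% after upper-quartile scaling, and 4.48% and 2.96% after quantile normalization; 2 of 51 members is 3.92% and 1 is 1.96%. Without 1 library, the count of higher members was 3 without mature 1 or immature 3, 1 without mature 2 or mature 3, and 0 without immature 1 or immature 2; the lower count was 1 (Srsf1) without immature 2 and 0 otherwise. In the same fits 16.6% of all genes were higher without mature 1, 10.7% without immature 3, and 3.54% to 8.35% without any of the other 4, so the members' share (at most 5.88%) was under that of all genes each time; 0.810% of all genes were lower without immature 2.

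**Figure D2:**
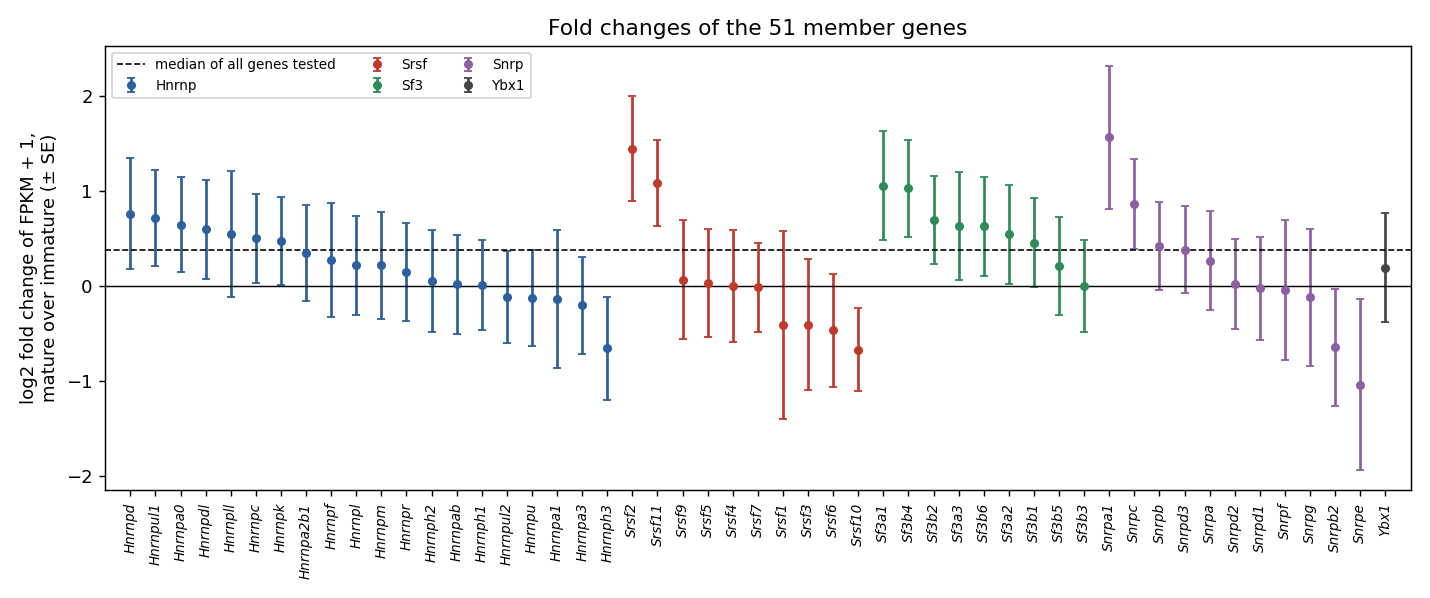
Log2 fold change of FPKM + 1, mature over immature, for the 51 genes, coloured by family, with 1 standard error of the limma fit as bars (3 libraries a group). The dashed line is the median of all genes tested (0.38). Srsf2 (1.44) and Srsf11 (1.08) stand apart in the SR family, 9 of 9 SF3 genes are at or above 0 before rescaling, and Snrpe (-1.04) is lowest. Of all 10277 genes tested, 7853 were above 0.

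Among the 20 hnRNP genes, levels averaged over all libraries ran between 1.87 and 115 FPKM with a median of 16.2 FPKM. Hnrnpa1, a splicing repressor that binds exonic silencers, was the highest at 40.5, 205 and 91.6 FPKM in mature libraries, against 88.2, 54.5 and 212 FPKM in immature libraries. The high values were mature 2 and immature 3, and the groups overlapped fully (log2 fold change -0.14, SE 0.72, limma adjusted p = 0.975). Hnrnpf, which binds G-rich sequences, had the same 2 libraries on top, with 27.3, 88.3 and 52.6 FPKM in mature libraries, against 36.4, 26.2 and 73.8 FPKM in immature libraries. Hnrnpa3, a relative of Hnrnpa1, stood at 25.6, 57.3 and 40.8 FPKM in mature libraries, against 36.7, 41.5 and 60.6 FPKM in immature libraries. Both overlapped, with log2 fold changes of 0.28 (SE 0.60) and -0.20 (SE 0.51).

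Hnrnpa2b1 (chr6:51460932-51469894) had 14.1, 39.6 and 32.1 FPKM in mature libraries, against 20.9, 19.9 and 20.5 FPKM in immature libraries. As for Ybx1, the immature libraries were close together, mature 1 was below them and the other two were above (log2 fold change 0.35, SE 0.51, limma adjusted p = 0.873). Hnrnpul1, which acts in transcription and the DNA damage response, had 22.3, 50.2 and 38.6 FPKM in mature libraries, against 18.8, 16.3 and 30.2 FPKM in immature libraries (log2 fold change 0.72, SE 0.51). Only immature 3 reached into the mature range. Hnrnpk, a poly(C)-binding protein, was at 30.9, 39.6 and 30.8 FPKM in mature libraries, against 25.3, 30.1 and 17.9 FPKM in immature libraries, and Hnrnpc, which binds uridine tracts in introns, at 20.3, 41.6 and 25.8 FPKM against 20.1, 18.5 and 19.8 FPKM. The groups were apart in both genes by less than 1 FPKM, and neither gene passed the test (log2 fold changes 0.47 and 0.50, limma adjusted p = 0.775 and 0.763).

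The hnRNP genes at the ends of the fold change order were low ones. Hnrnpd, the AU-rich element decay factor AUF1, had 2.35, 3.73 and 1.58 FPKM in mature libraries, against 0.817, 0.0307 and 3.48 FPKM in immature libraries (log2 fold change 0.76, SE 0.58). Hnrnph3, of the G-tract-binding H/F group, had 1.42, 2.24 and 5.45 FPKM in mature libraries, against 4.20, 7.73 and 3.33 FPKM in immature libraries (log2 fold change -0.65, SE 0.54). Groups overlapped in both. Over the family, 15 fold changes were positive and 5 negative, the median was 0.22, and 13 of 20 lay below the median of all genes; after median-of-ratios, upper-quartile and quantile scaling the median was -0.24, -0.27 and -0.26.

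The SR protein genes held the 2 members with the smallest p. Srsf2 (chr11:116849901-116853094), an activator of exon inclusion concentrated in nuclear speckles, had 31.5, 22.2 and 53.8 FPKM in mature libraries, against 9.76, 7.27 and 22.1 FPKM in immature libraries. All mature libraries were above, but the lowest of them, mature 2, exceeded immature 3 by less than 1 FPKM. Means were 35.9 ± 16.2 FPKM in mature and 13.0 ± 7.92 FPKM in immature libraries (SD, n = 3 each), a ratio of 2.75, with a log2 fold change of 1.44 (SE 0.56, unadjusted p = 0.0255 and limma adjusted p = 0.437). The unadjusted p was above 0.05 under each of the 3 other scalings, where the log2 fold change was 0.92 to 0.97, and without mature 3, immature 1 or immature 2.

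Srsf11 (chr3:158010473-158036639), an SR-related protein of the speckles, had 5.27, 5.06 and 3.23 FPKM in mature libraries, against 2.22, 1.31 and 1.28 FPKM in immature libraries. The groups did not overlap in FPKM, but they did as a percent of the library's total. Means were 4.52 ± 1.12 FPKM in mature and 1.60 ± 0.538 FPKM in immature libraries (SD, n = 3 each; log2 fold change 1.08, SE 0.45, limma adjusted p = 0.475). Its unadjusted p of 0.0371 was above 0.05 under each of the 3 other scalings, where the log2 fold change was 0.68 to 0.73, with the replicate block, and without any single library other than mature 3. Srsf10 (chr4:135855747-135869908), which turns into a general splicing repressor when dephosphorylated, had 8.02, 9.42 and 7.99 FPKM in mature libraries, against 13.9, 14.1 and 14.0 FPKM in immature libraries. Every mature library was below, by a wide margin against the spread within groups: 8.48 ± 0.815 FPKM in mature and 14.0 ± 0.104 FPKM in immature libraries (SD, n = 3 each). The log2 fold change of -0.67 (SE 0.43, unadjusted p = 0.154, limma adjusted p = 0.655), or -1.05 relative to the median of all genes, did not pass. This SE draws on the spread of other genes and is wider than the gene's own libraries alone would give. Under median-of-ratios, upper-quartile and quantile scaling the log2 fold change was -1.13, -1.16 and -1.15. The unadjusted limma p was then 0.0224, 0.0165 and 0.0139, and the adjusted p 0.618, 0.588 and 0.515.

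The Srsf10 sum joined coding and non-coding transcripts. Its 5 processed transcripts summed to 3.82, 4.15 and 6.27 FPKM in mature libraries, against 10.3, 11.5 and 5.92 FPKM in immature libraries. Its 4 protein-coding transcripts summed to 4.20, 5.27 and 1.72 FPKM in mature libraries, against 3.62, 2.64 and 8.06 FPKM in immature libraries. Neither class was apart between the groups, though their sum was, and with coding transcripts only the log2 fold change was -0.26 (unadjusted p = 0.640).

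The other SR protein genes overlapped between groups. Srsf5, on average the most abundant of them, had 12.9, 42.8 and 25.8 FPKM in mature libraries, against 35.5, 15.2 and 24.8 FPKM in immature libraries (log2 fold change 0.03, SE 0.56). Srsf3, the smallest SR protein and an mRNA export adaptor, had 5.37, 30.0 and 13.5 FPKM in mature libraries, against 13.9, 9.95 and 40.0 FPKM in immature libraries (log2 fold change -0.41, SE 0.69). Both ranges were wide, and in Srsf3 the high libraries were again mature 2 and immature 3. Srsf9 had 4.76, 21.5 and 21.1 FPKM in mature libraries, against 12.8, 7.74 and 19.6 FPKM in immature libraries (log2 fold change 0.07, SE 0.63), and Srsf6 had 0.836, 5.59 and 4.72 FPKM against 3.39, 3.84 and 7.51 FPKM (log2 fold change -0.46, SE 0.59). Srsf1, the founding SR protein and singled out after its values were seen, had the widest spread, at 4.65, 9.55 and 5.08 FPKM in mature libraries against 37.8, 0.463 and 13.9 FPKM in immature libraries. The log2 fold change was -0.41 with all libraries (SE 0.98) and -1.75 without immature 2 (SE 0.60). Immature 1, at 37.8 FPKM, pulled the other way. Without it, the immature values of 0.463 and 13.9 FPKM lie on both sides of the mature range. Neither the size nor the direction for Srsf1 is therefore settled. The family had 5 positive and 5 negative fold changes, a median of -0.01, and 8 of 10 below the median of all genes.

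The 9 genes of SF3a and SF3b were low to moderate in level, at 3.004 to 16.3 FPKM, and were the family with the highest median fold change, 0.63. Fold changes were positive in 9 of 9 (8 of 9 without mature 2, mature 3, immature 1 or immature 2) and above the median of all genes in 7 of 9; under median-of-ratios, upper-quartile and quantile scaling, 7, 7 and 6 of the 9 were positive, with medians of 0.21, 0.18 and 0.13, and 7 of 9 were above the median of all genes in each. Before rescaling, 7853 of all 10277 genes tested were positive. The summed level of the 9 SF3 genes was 56.5, 81.0 and 88.8 FPKM in mature libraries, against 48.1, 41.5 and 49.4 FPKM in immature libraries. All mature libraries were above in FPKM, but as a percent of the library's total the groups overlapped, at 0.0433%, 0.0288% and 0.0361% in mature and 0.0331%, 0.0306% and 0.0231% in immature libraries.

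Sf3b2, which contacts the intron near the branch site, was the highest SF3 gene at 16.8, 19.0 and 25.1 FPKM in mature libraries, against 9.93, 16.7 and 10.4 FPKM in immature libraries (log2 fold change 0.69, SE 0.46, limma adjusted p = 0.661). Sf3b4, its binding partner, had 12.6, 8.20 and 17.2 FPKM in mature libraries, against 6.68, 7.54 and 3.10 FPKM in immature libraries (log2 fold change 1.03, SE 0.51, limma adjusted p = 0.544). Groups were apart in both, narrowly at mature 1 and immature 2 for Sf3b2 and at mature 2 and immature 2 for Sf3b4. Sf3a1, a subunit of SF3a, had 2.57, 6.19 and 6.16 FPKM in mature libraries, against 3.02, 0.326 and 2.84 FPKM in immature libraries (log2 fold change 1.06, SE 0.58, limma adjusted p = 0.570). Sf3b6, which touches the branch-point adenosine, had 6.96, 11.1 and 6.36 FPKM in mature libraries, against 7.28, 2.31 and 6.02 FPKM in immature libraries (log2 fold change 0.63, SE 0.52). In each of these the lowest value came from immature 2, and the groups overlapped. The smallest changes were in Sf3b3, a scaffold of SF3b, at 4.34, 8.26 and 5.64 FPKM in mature libraries against 5.45, 4.23 and 8.71 FPKM in immature libraries (log2 fold change 0.00, SE 0.49), and in Sf3b5, a small SF3b subunit, at 1.32, 3.55 and 5.43 FPKM against 1.84, 2.84 and 3.03 FPKM (log2 fold change 0.21, SE 0.51).

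Among the Snrp genes, the Sm ring genes Snrpe, Snrpf, Snrpg and Snrpd1 were the most abundant. Snrpe (chr1:133603871-133610291) had 2.45, 46.3 and 21.3 FPKM in mature libraries, against 26.5, 15.5 and 67.9 FPKM in immature libraries (log2 fold change -1.04, SE 0.90, limma adjusted p = 0.739). Snrpf had 8.03, 52.0 and 31.3 FPKM in mature libraries, against 23.4, 12.0 and 51.7 FPKM in immature libraries (log2 fold change -0.04, SE 0.73). Snrpg had 12.6, 37.9 and 18.9 FPKM in mature libraries, against 22.8, 7.94 and 62.4 FPKM in immature libraries (log2 fold change -0.12, SE 0.72). In all of these the 2 highest libraries were mature 2 and immature 3, one from each group. Snrpd1 had 11.1, 34.0 and 20.7 FPKM in mature libraries, against 18.4, 14.8 and 30.3 FPKM in immature libraries, with the same 2 on top (log2 fold change -0.02, SE 0.54).

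Some of the other Snrp proteins belong to a single particle. Snrpc, the U1 protein that helps recognise the 5′ splice site, had 10.4, 20.4 and 18.1 FPKM in mature libraries, against 7.59, 9.85 and 7.33 FPKM in immature libraries. Every mature library was above, mature 1 by less than 1 FPKM, and the log2 fold change of 0.86 (SE 0.47) had a limma adjusted p of 0.570. Snrpa1, the U2 protein A′, had 13.1, 9.47 and 6.50 FPKM in mature libraries, against 3.63 and 8.30 FPKM in immature 1 and 3 and a listed 0 in immature 2 (log2 fold change 1.56, SE 0.75, limma adjusted p = 0.527). Immature 3 lay within the mature range, and the fitted value depends on the listed 0. Its partner in U2, Snrpb2, had 0.691, 4.05 and 0.436 FPKM in mature libraries, against 2.51, 1.12 and 5.27 FPKM in immature libraries (log2 fold change -0.64, SE 0.61). The family had 6 positive and 5 negative fold changes, a median of 0.02, and 8 of 11 below the median of all genes; after the 3 other scalings the median was -0.46, -0.49 and -0.48.

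A pair of libraries from different groups was often highest among the members. Mature 2 and immature 3 were the 2 highest libraries for 18 of 51 members (35.3%), against 27.3% of all genes tested, including 9 of 20 hnRNP, 5 of 11 Snrp, 3 of 10 SR and 1 of 9 SF3 genes. Mature 1 and immature 2 were the 2 lowest for 17 members (33.3%), against 34.1% of all genes. The lowest library of a member was mature 1 in 20 of 51 genes and immature 2 in 20, and the highest was mature 2 in 22, mature 3 in 11 and immature 3 in 11. Among all genes tested, the lowest library was mature 1 in 27.7% and immature 2 in 40.7%. The highest was mature 2 in 36.6%, mature 3 in 29.6% and immature 3 in 18.4% of them. The haemoglobin gene Hbb-bs was also highest in mature 2 and immature 3, at 12.0, 88.0 and 5.60 FPKM in mature libraries, against 6.01, 7.87 and 167 FPKM in immature libraries. Neutrophil transcripts (8 genes) summed to 247, 1114 and 419 FPKM in mature and 183, 224 and 1216 FPKM in immature libraries. The part of these cells' RNA in the members' values was not tested.

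**Figure D3:**
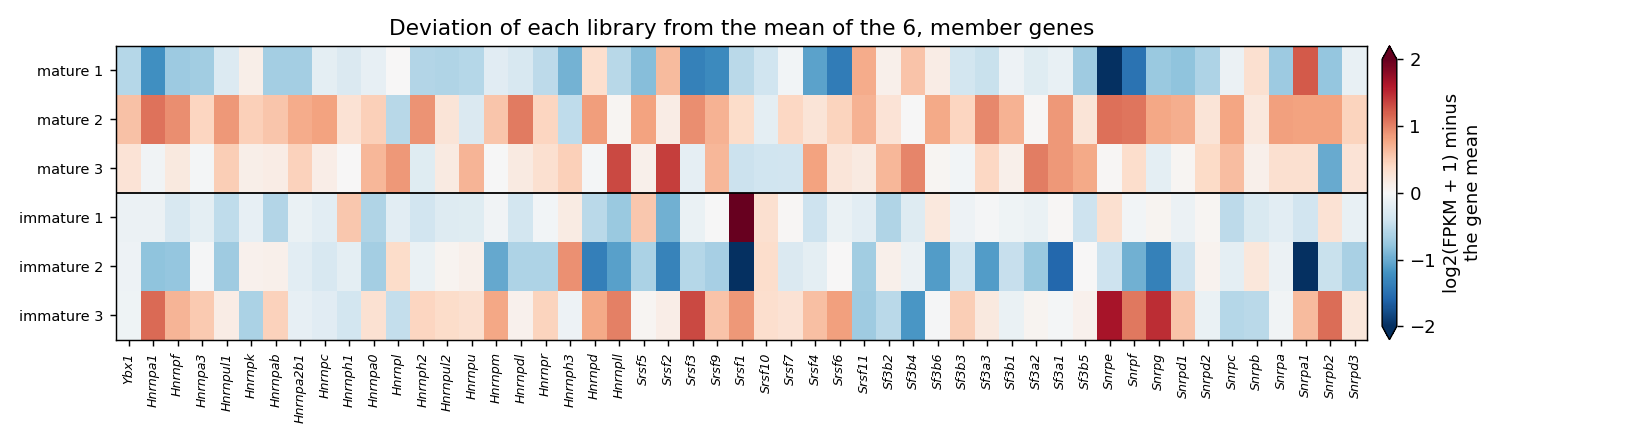
Log2(FPKM + 1) of each of the 51 genes (columns, by family) in each library (rows) minus that gene's mean over the 6 libraries; red is above and blue below, and colours saturate at the ends of the scale. The rows of mature 2 and immature 3 are mostly red, and those of mature 1 and immature 2, each the lowest library for 20 genes, mostly blue. Of all genes tested, mature 1 was lowest in 27.7% and immature 2 in 40.7%.

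Of the marker lists for other cells, the mast cell and basophil list was apart between groups in its sum. Of its 5 tested genes, 3 were apart (Mcpt8, Gata2 and Hdc), beside 16.7% of all genes, while Cpa3 and Prss34 overlapped. All 5 were higher in mature libraries at an unadjusted limma p under 0.05, beside 9.52% of all genes, and none passed after adjustment. Their log2 fold changes were 1.18 to 2.58. This list, 5 of 7 genes of which reached the filter, summed to 30.9, 63.3 and 68.0 FPKM in mature and 6.47, 15.0 and 10.4 FPKM in immature libraries; Fcer1a was listed at 0 in mature 1 and in all immature libraries. The macrophage list summed to 78.3 to 214 FPKM in mature and 88.0 to 89.7 FPKM in immature libraries, with C1qa listed at 0 in mature 1 and immature 2. The groups overlapped in this list and in the next ones. T and NK cell transcripts summed to 5.18 to 12.8 FPKM in mature and 2.33 to 16.1 FPKM in immature libraries, and stromal collagen transcripts with Dcn to 0.630 to 14.4 and 0.620 to 4.44 FPKM. B cell transcripts stayed at 0.754 to 3.86 FPKM in mature and 0.920 to 3.56 FPKM in immature libraries, with Ms4a1 listed at 0 in mature 1 and mature 3. Their part in the members' values was not tested either.

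As a share of all listed FPKM in a library, the members were lower in mature exosomes by a small margin. They held 0.506%, 0.550% and 0.474% in mature libraries, against 0.619%, 0.556% and 0.601% in immature libraries, and the closest libraries, mature 2 and immature 2, differed by less than 0.01 percentage points. Without Ybx1 the shares were 0.376%, 0.415% and 0.351% in mature and 0.460%, 0.383% and 0.490% in immature libraries, and the groups overlapped. In FPKM the members summed to 659, 1548 and 1166 in mature libraries, against 900, 755 and 1285 in immature libraries, again overlapping. No test was made on these sums. Transcripts listed as processed, not protein coding, gave 6.87%, 4.89% and 5.18% of the members' FPKM in mature and 12.6%, 6.29% and 2.96% in immature libraries.

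**Figure D4:**
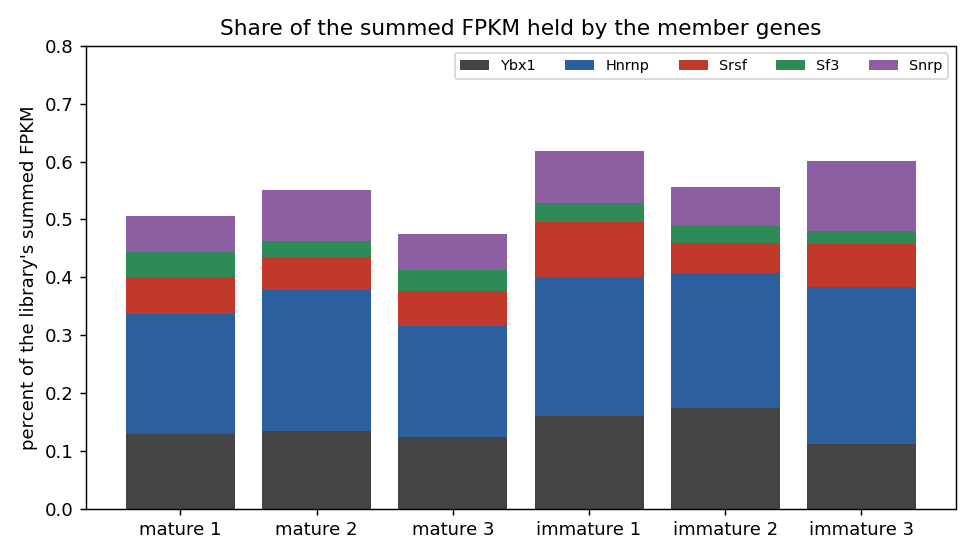
Summed FPKM of each family as a percent of the library's total, stacked, for 3 mature (left) and 3 immature (right) libraries. The full bars reach 0.474% to 0.550% in mature and 0.556% to 0.619% in immature libraries, and hnRNP genes with Ybx1 make up most of each bar.

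Splicing factor genes make many isoforms, and single transcripts were tested in the same way. Of the 170 member transcripts 134 were listed as protein coding and 36 as processed transcripts, 19 genes had 1 listed transcript, and Hnrnpk had the most, 16. How reads were divided among isoforms is an estimate of the authors' software, so values of single transcripts are less certain than gene sums. Of the 123 transcripts that reached the filter 0 passed (limma, adjusted over all 15972 transcripts tested, of which 0.0626% passed as higher and 0.0125% as lower; smallest adjusted p among members 0.342). At an unadjusted p under 0.05, 6 were higher (background 7.39%) and 1 lower (0.682%). Every mature library was above every immature one for 8 (6.50%, against 13.1% of all transcripts) and below for 2 (1.63%, against 1.39%), the 2 being Ybx1-206 and Srsf5-201. Srsf5-201 lies outside the naming rule and was singled out after its values were seen.

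Hnrnpa2b1-201 (protein coding) had the smallest p of the member transcripts. Its level was 13.5, 15.3 and 17.2 FPKM in mature libraries, against 4.26, 2.84 and 4.51 FPKM in immature libraries. The groups were far apart compared with their spread, at 15.4 ± 1.88 FPKM in mature and 3.87 ± 0.903 FPKM in immature libraries (SD, n = 3 each; log2 fold change 1.76, SE 0.48, unadjusted p = 0.00503, limma adjusted p = 0.342). It made up 95.6%, 38.8% and 53.7% of the gene's FPKM in mature libraries, against 20.3%, 14.3% and 22.0% in immature libraries. Hnrnpa2b1-204, another coding transcript singled out after its values were seen, had 7.09 FPKM in mature 2 and was listed at 0 in mature 1 and 3, against 4.46, 11.7 and 4.38 FPKM in immature libraries. The gene as a whole overlapped between groups, as given above.

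The next transcripts by p were listed at 0 in most immature libraries. Hnrnpl-209, of the gene whose protein binds CA repeats, had 2.91, 1.89 and 3.37 FPKM in mature libraries, against 0, 0 and 0.545 FPKM in immature libraries (log2 fold change 1.67, SE 0.47, limma adjusted p = 0.366). Hnrnph1-215, a processed transcript, had 3.79, 1.21 and 4.25 FPKM in mature libraries, against 0, 0 and 0.485 FPKM in immature libraries (log2 fold change 1.74, SE 0.53, limma adjusted p = 0.413). Mature libraries were above in both. Srsf2-206 (protein coding) had 21.8, 6.67 and 37.5 FPKM in mature libraries, against 0, 0 and 10.1 FPKM in immature libraries (log2 fold change 3.08, SE 1.01, limma adjusted p = 0.453), so immature 3 overlapped. Srsf2-201, singled out after its values were seen, had 9.74, 15.6 and 16.4 FPKM in mature libraries, against 9.76, 7.27 and 11.9 FPKM in immature libraries. Srsf2-206 held 69.1%, 30.0% and 69.6% of the gene in mature libraries, against 0%, 0% and 45.9% in immature libraries.

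Hnrnpk-214, a coding transcript, had 2.61, 1.45 and 2.10 FPKM in mature libraries, against 1.09, 0 and 0 FPKM in immature libraries (log2 fold change 1.24, SE 0.50, limma adjusted p = 0.560). Ybx1-206, a processed transcript, was the one lower at an unadjusted p under 0.05: 0.583, 0.0786 and 0.00506 FPKM in mature libraries, against 1.74, 1.08 and 2.60 FPKM in immature libraries (log2 fold change -1.19, SE 0.44, limma adjusted p = 0.527). It was a small part of Ybx1 in each library. The most abundant processed transcript of each multi-gene family overlapped between groups. Srsf5-206 had 3.97, 15.8 and 6.74 FPKM in mature libraries, against 14.3, 0 and 0 FPKM in immature libraries. Hnrnph1-210 had 3.01, 0.0359 and 4.83 FPKM in mature libraries, against 10.6, 0 and 0.0168 FPKM in immature libraries. A single library, immature 1, carried the immature signal of both. Sf3a3-203 had 0.562, 5.60 and 0.330 FPKM in mature libraries, against 2.15, 0 and 2.004 FPKM in immature libraries, and Snrpa1-203 had 0, 2.19 and 1.41 FPKM against 2.16, 0 and 1.26 FPKM.

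A transcript's share of its gene does not depend on scaling between libraries. Shares were tested for 130 transcripts of 27 member genes (limma on the arcsine of the square root of the share, adjusted over all 13731 transcripts tested), and 0 passed, as in the whole table, where 0% passed in either direction; the adjusted p was at least 0.913. At an unadjusted p under 0.05, 5 shares were higher (background 2.16%) and 4 lower (1.81%). Shares were above in every mature library for 7 (5.38%, against 4.05%) and below for 5 (3.85%, against 3.50%). Those with the smallest p were Hnrnpl-209, Srsf11-204, Hnrnph1-215, Hnrnpa2b1-201 and the pair Sf3a2-202 and Sf3a2-203, which are the only transcripts of their gene.

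Srsf11-204 (protein coding) held 37.1%, 88.2% and 82.2% of Srsf11 in mature libraries, against 94.9%, 100% and 100% in immature libraries. In Sf3a2, which encodes an SF3a subunit, Sf3a2-202 held 31.5%, 30.4% and 17.0% in mature libraries, against 0%, 0% and 15.1% in immature libraries, and Sf3a2-203 the rest. Hnrnpl-209 held 19.6%, 19.5% and 12.2% of Hnrnpl in mature libraries, against 0%, 0% and 5.28% in immature libraries, and Hnrnph1-215 held 28.4%, 5.94% and 25.6% of Hnrnph1 against 0%, 0% and 3.86%. Mature and immature libraries were apart in each of these shares. Of the 32 members with at least 2 listed transcripts, 10 had the same leading transcript in all 6 libraries and 22 did not. In the counts at an unadjusted p, leaving out mature 1 or immature 2 brought both directions to 0, so they rest on those libraries.

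**Figure D5:**
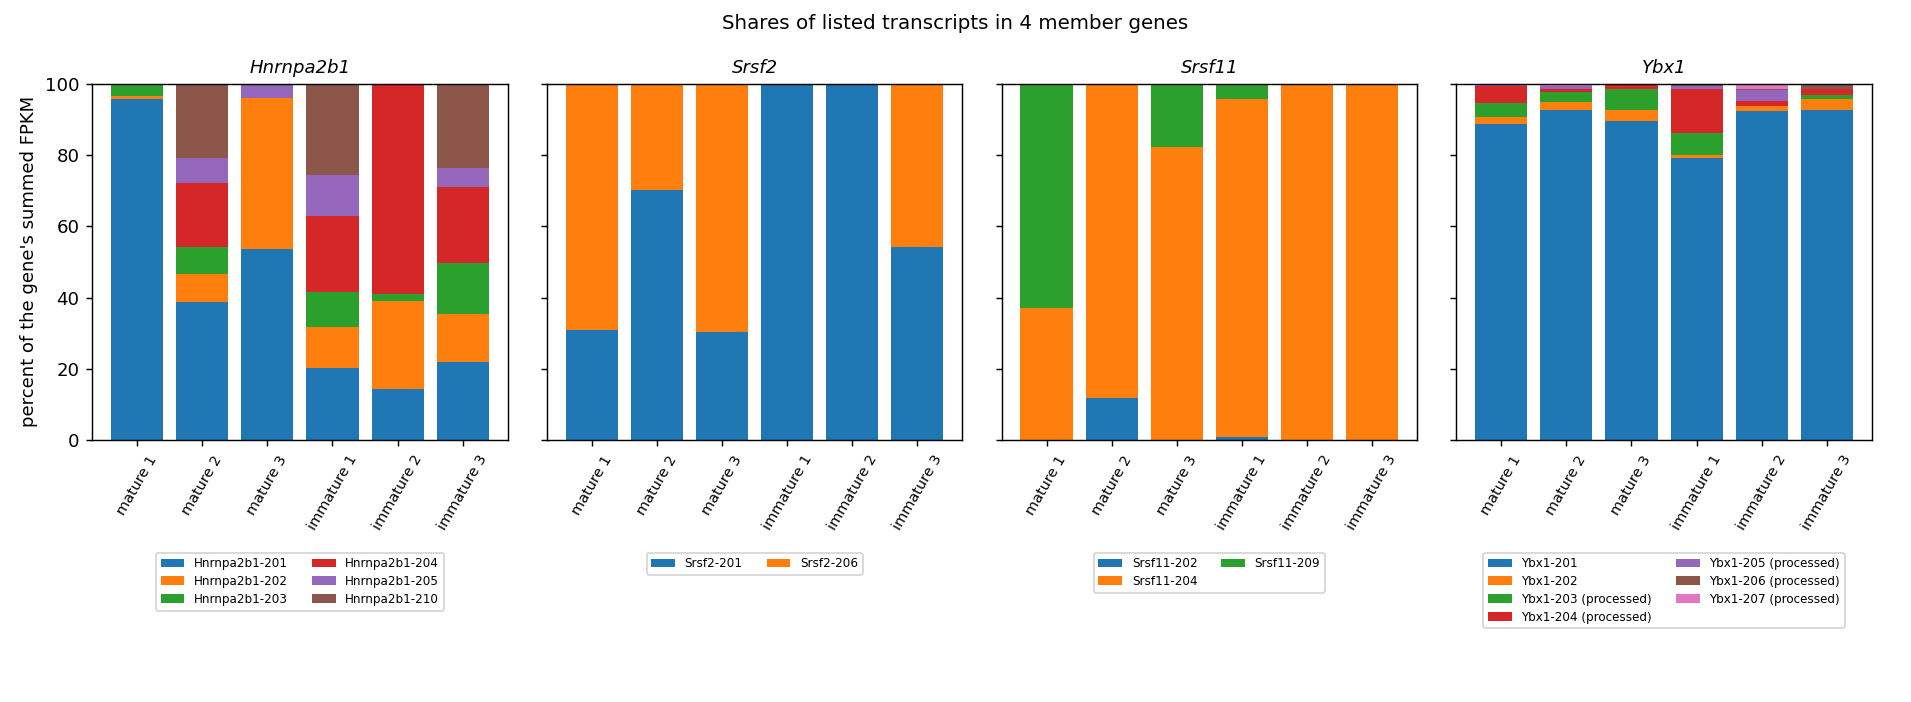
Percent of a gene's summed FPKM held by each listed transcript in 3 mature (left) and 3 immature (right) libraries, for 4 genes. Hnrnpa2b1-201 spans 38.8% to 95.6% in mature and 14.3% to 22.0% in immature libraries, Srsf2-206 is at 0% in immature 1 and 2, Srsf11-204 is at 94.9% to 100% in immature libraries, and Ybx1-201 leads in all 6.

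Genes that act beside the members were read from 5 lists: other spliceosome proteins, SR-related proteins and SR protein kinases, other hnRNP-like proteins, proteins linked to RNA loading of vesicles, and the exon junction, export and decay factors. Of 135 genes 134 were found and tested, and 0 passed (smallest limma adjusted p 0.350). At an unadjusted p under 0.05, 8 were higher (5.97%, beside 9.52% of all genes) and 0 lower. In 23 (17.2%, beside 16.7%) every mature library was above every immature one, and in 1 (Thoc1; 0.746%, beside 0.642%) below. These shares are near or under those of all genes. The 8, named after their values were seen where the naming rule did not take them, were Prpf38b and Aqr of the spliceosome (2 of 48), Rnps1 (1 of 22), Pcbp1, Ilf2 and Cirbp (3 of 33), Mvp (1 of 9) and Nxt1 (1 of 22). After median-of-ratios and upper-quartile scaling the split was 3 higher and 2 lower, and after quantile normalization 3 higher and 3 lower, beside 4.45% to 4.67% of all genes higher and 2.31% to 2.96% lower in the same fits. Without mature 3, 3 of 132 were higher (2.27%, beside 3.54% of all genes), and without mature 1, 21 of 133 (15.8%, beside 16.6%).

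Of all 10277 genes tested, 7853 fold changes were positive before rescaling. Among the other spliceosome proteins 44 of 48 were positive and 34 above the median of all genes, and their median was 0.60 (log2). Their 2 most abundant genes were Snrnp27, a protein of the tri-snRNP, at 15.6, 26.4 and 24.4 FPKM in mature libraries against 16.8, 55.7 and 13.6 FPKM in immature libraries, and Lsm4, of the ring on U6, at 16.3, 35.2 and 33.6 FPKM against 13.4, 6.11 and 21.8 FPKM. Both overlapped, with log2 fold changes of -0.12 (SE 0.59) and 1.07 (SE 0.57). SR-related proteins had a median of 0.22. Son, a large speckle scaffold, followed the crossed pair at 4.94, 43.7 and 34.8 FPKM in mature libraries, against 36.6, 4.74 and 72.7 FPKM in immature libraries.

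Rnps1, which links splicing to the exon junction complex, varied little within groups. It had 23.5, 23.2 and 26.1 FPKM in mature libraries, against 10.8, 10.4 and 9.67 FPKM in immature libraries. The groups were far apart relative to their spread, at 24.3 ± 1.59 FPKM in mature and 10.3 ± 0.577 FPKM in immature libraries (SD, n = 3 each), yet the gene did not pass over the whole table (log2 fold change 1.16, SE 0.43, unadjusted p = 0.0214, limma adjusted p = 0.412). As for Srsf10, this SE draws on the spread of other genes and is wider than the gene's own libraries alone would give. The small spread is that of FPKM without scaling between libraries. Over the main and alternative fits the log2 fold change of Rnps1 ran from 0.66 to 1.23, and its unadjusted limma p from 0.0162 to 0.149.

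The hnRNP-like list had a median of 0.32. Pcbp2, a poly(C)-binding protein, had 71.9, 144 and 120 FPKM in mature libraries, against 75.1, 75.5 and 93.6 FPKM in immature libraries, and Ybx3, the relative of Ybx1, had 44.4, 77.6 and 70.4 FPKM against 57.3, 35.9 and 98.1 FPKM. Both overlapped (log2 fold changes 0.41 and 0.09). Of the genes linked to vesicle RNA (median 0.15), Ago2, the miRNA effector, followed the crossed pair at 12.6, 68.9 and 29.5 FPKM in mature libraries, against 22.3, 10.6 and 76.9 FPKM in immature libraries. Ncl, nucleolin, had 7.78, 18.5 and 13.6 FPKM in mature libraries, against 19.5, 12.7 and 17.6 FPKM in immature libraries (log2 fold change -0.35, SE 0.49). Mvp, the major vault protein, stood apart at 12.4, 20.8 and 34.8 FPKM in mature libraries, against 7.23, 5.84 and 6.36 FPKM in immature libraries (log2 fold change 1.55, SE 0.50, limma adjusted p = 0.350).

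The exon junction, export and decay list had a median of 0.22. Its core helicase Eif4a3 had 10.8, 10.9 and 19.3 FPKM in mature libraries, against 47.3, 28.6 and 8.98 FPKM in immature libraries (log2 fold change -0.77, SE 0.62), and its partner Magoh had 10.4, 21.5 and 10.2 FPKM against 4.58, 12.4 and 11.7 FPKM (log2 fold change 0.54, SE 0.54). Groups overlapped in both genes.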

How the data were processed

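Per the file headers, the authors' deposited table holds FPKM for each listed transcript in each library, beside the transcript's type, gene and position. No listed transcript had a maximum over the libraries below 0.500024 FPKM. Library totals, counts of genes and transcripts, and shares of a gene therefore cover listed transcripts only. StringTie, STAR 2.5.2b, HISAT2 2.0.5 and cutadapt are named by the submitters' processing notes without their roles, as is the human build hg19. The identifiers, however, are mouse Ensembl ones, and all 51 members overlapped the RefSeq position of their symbol on GRCm38.p6, so positions are read on that build. Whether counting used strand is not given in the sources used here, and copies of a gene (processed pseudogenes of Hnrnpa1, Hnrnpa3 and the Sm genes, for example) may share reads. FPKM holds no read totals, so depth per library is unknown and no counting interval is given.

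From these values, FPKM was summed per gene, features at 0.5 FPKM or more in at least 3 of 6 libraries were kept, and log2(FPKM + 1) was tested by a 2-sided limma fit (version 3.58.1, R 4.3.3, trended and robust eBayes, no scaling, no block), adjusting p by Benjamini-Hochberg over the whole table. All fold changes are of log2(FPKM + 1), so low genes appear less changed than they are. Shares were tested for genes with at least 2 transcripts and a sum of at least 1 FPKM in every library, for transcripts with a mean share between 0.01 and 0.99. Scripts were tested on simulated data. Groups and replicate numbers came from the sample titles; a treatment tag that reads untreated for all 6 libraries goes against the protocol and was not used.

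Named genes were Ybx1 and Hnrnpa2b1, the 4 most abundant and the 2 with the largest fold change in each direction of each family, the 6 transcripts with the smallest p in each transcript test, the most abundant processed transcript of each family, and the 2 most abundant genes of each further list. The members and lists were chosen with earlier results of these data known. Of the erythroid marker list, 1 gene is not reported here, and its sum is not given. Members on mouse chromosome 18 (1 gene) and those without a promoter entry have no sequence here. Alternatives were a pseudocount of 0.1, no filter, 3 scalings, coding transcripts only, each library left out, mature 1 and immature 2 left out together, a replicate block, and for shares no transformation and a sum of 5 FPKM.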

Additional observations from a re-analysis of the deposited data

How the results depend on the processing

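No member gene, member transcript, transcript share or further-list gene passed in any alternative run: 0 called under each of 14 alternatives for genes, 13 for transcripts, 10 for shares and 14 for the further lists, the smallest adjusted p being 0.176, 0.191, 0.434 and 0.116. The median member log2 fold change minus that of all genes (-0.17) was -0.32 with a pseudocount of 0.1 and -0.28 after both median-of-ratios and upper-quartile scaling, and -0.25 to -0.12 with 1 library left out. It was smallest in size at -0.099 without mature 1 and immature 2 together and -0.11 with no filter, and it was negative in every alternative run. The labels do not say whether same-numbered libraries are paired. Deviations from the group mean correlated at -0.03, -0.45 and -0.13 between same-numbered libraries. The highest values were 0.53 for mature 2 with immature 3 and 0.38 for mature 1 with immature 2. With 3 libraries a group, such correlations cannot decide whether libraries were paired. With a replicate block 0 members passed (5 genes of the whole table, against 19 without it), and at an unadjusted p under 0.05 the members split 1 higher, 0 lower.

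Of 54 named results (fold changes of genes and transcripts, and differences in share), 31 kept their sign throughout and 23 did not, 5 of them only with 1 library left out. After median-of-ratios scaling these turned negative: Ybx1 -0.31, Hnrnpa2b1 -0.15, Hnrnpf -0.22, Srsf5 -0.46, Srsf9 -0.42, Sf3b3 -0.43, Sf3b5 -0.20, Pcbp2 -0.10, Ybx3 -0.42, Ago2 -0.34, Sf3a3-203 -0.027 and Snrpa1-203 -0.23. After upper-quartile scaling the values were Ybx1 -0.34, Hnrnpa2b1 -0.18, Hnrnpf -0.25, Srsf5 -0.49, Srsf9 -0.45, Sf3b3 -0.46, Sf3b5 -0.22, Pcbp2 -0.13, Ybx3 -0.44, Ago2 -0.37, Sf3a3-203 -0.028 and Snrpa1-203 -0.23. After quantile normalization they were Ybx1 -0.10, Hnrnpa2b1 -0.16, Hnrnpf -0.24, Srsf5 -0.45, Srsf9 -0.47, Sf3b3 -0.47, Sf3b5 -0.21, Pcbp2 -0.11, Ybx3 -0.42, Ago2 -0.39 and Snrpa1-203 -0.25. These scalings remove the shift of all genes by construction. With coding transcripts only, Srsf5 was at -0.44 and Snrnp27 at 0.014.

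With 1 library left out, or mature 1 and immature 2 together, fold changes that turned sign ranged over Ybx1 -0.052 to 0.53, Hnrnpa1 -0.72 to 0.44, Hnrnpf -0.12 to 0.71, Hnrnpa3 -0.47 to 0.096, Srsf5 -0.36 to 0.47, Srsf3 -0.97 to 0.17, Srsf9 -0.26 to 0.72, Srsf6 -0.80 to 0.12, Sf3b3 -0.21 to 0.25, Sf3b5 -0.12 to 0.68, Snrpe -1.85 to 0.043, Snrpf -0.58 to 0.69, Snrpg -0.83 to 0.59, Snrpd1 -0.39 to 0.37, Snrnp27 -0.49 to 0.71, Son -1.31 to 0.67, Ybx3 -0.26 to 0.45, Ago2 -0.47 to 0.90, Hnrnph1-210 -0.25 to 1.08, Sf3a3-203 -0.55 to 0.60 and Snrpa1-203 -0.44 to 0.52. The cause was not tested. FPKM gives no read depth, so how far depth limits low members such as Snrpb2 or Hnrnpd is unknown.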
